A study of Mus musculus with 5 samples.

Results

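Glucose uptake and the upper steps of glycolysis were followed through 10 genes in the mouse dendritic cell line MutuDC, of the cDC1 type, during treatment with Fanchinoline, the spelling the labels use. The members were the glucose transporters Slc2a1 and Slc2a3, the hexokinases Hk1 and Hk2, the isomerase Gpi1, the phosphofructokinases Pfkl, Pfkm and Pfkp, and the regulatory enzymes Pfkfb3 and Pfkfb4. They were chosen by symbol from the 53700 genes of the deposited count table, where each had 1 entry. The 5 poly-A RNA-seq libraries were from cells after 2, 6, 12 and 24 h with the compound and from a vehicle control taken as 0 h, which the series' design text calls untreated. No dose is stated in the labels. There was 1 library per time and none without the compound at the later times, so exposure and hours in culture cannot be told apart, and no ratio between 2 libraries has a replicate check.

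Glucose enters most cells through facilitative transporters of the GLUT family, of which GLUT1 (Slc2a1) and GLUT3 (Slc2a3) are the widespread forms. Hexokinases trap it as glucose-6-phosphate, the isomerase turns this into fructose-6-phosphate, and phosphofructokinase adds a further phosphate in the committed step of glycolysis. The PFKFB enzymes make and break fructose-2,6-bisphosphate, the strongest activator of phosphofructokinase. Dendritic cells are known to raise glycolysis on activation, and many of these genes are known targets of the hypoxia-inducible factor HIF-1.

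Total counts per library lay between 33568526 and 42854511. Levels are given as CPM, counts scaled to library size with edgeR's TMM factors, and 10 CPM stood for 328 to 427 counts. All 11 genes that define the cDC1 type of dendritic cell, such as Xcr1, Clec9a, Irf8 and Batf3, exceeded 10 CPM in at least 1 library. Their median log2 ratio at 24 h over vehicle was -0.38. Cd8a alone of them was called lower there (-1.24, and -1.15 adjusted), as were 1.23% of all genes compared before adjustment. Markers of B cells, T and NK cells, stromal cells, and erythroid cells and granulocytes summed to at most 2.79 CPM per list in any library. The 12 macrophage and monocyte markers summed to 330 CPM (12 h) to 451.5 CPM (vehicle), most of it Lyz2 and Csf1r, with Mertk, Mrc1, Marco and Vsig4 at 0 counts in every library. Csf1r was at 137 CPM at 24 h and 72.3 CPM in vehicle (log2 ratio 0.93), and Lyz2 at 198 CPM and 355 CPM (-0.85), neither of them called. The vehicle library stood apart in the balance of long and short genes: the median log2 ratio of the fifth of genes with the greatest exonic length exceeded that of the fifth with the least by 0.50, 0.56, 0.61 and 0.65 at 2, 6, 12 and 24 h over vehicle. Between treated libraries this difference was at most 0.15. The same comparison by GC content, highest against lowest, gave at most 0.22 in size over vehicle, but -0.24 at 12 h and -0.36 at 24 h over 2 h. Ratios adjusted for exonic length and GC content are given beside those of the members, together with ratios over the 2 h library. The share of mitochondrial counts was 1.47 to 1.78% in the treated libraries and 2.58% in vehicle. The part of these differences, the markers included, in the members' ratios was not tested. In bulk RNA a change in the share of cells with a message and a change in RNA per cell cannot be told apart.

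Slc2a1, Pfkl and Hk1 stood far above vehicle from 6 or 12 h on, and Hk2 was already near its highest level at 2 h. Gpi1 and Pfkfb4 were highest at 12 h, at 1.44 and 1.65 times the vehicle level. Pfkp and Pfkm moved little, Pfkfb3 was highest at 2 h, and Slc2a3 was close to 0 counts throughout. A call between 2 libraries required a log2 ratio of 1 or more in size, with a 95% exact (Clopper-Pearson) interval that excluded equal levels. Calls compare libraries and not conditions, the intervals cover counting error only, and 9 members passed the minimum of 10 CPM in at least 1 library. At 2 h over vehicle 0 of these 9 were called higher, against 0.904% of the 8846 genes compared. At 6 h 3 members were called higher (Slc2a1, Pfkl and Hk2), against 1.57% of genes, at 12 h 4 (with Hk1), against 2.33%, and at 24 h 3 (Slc2a1, Pfkl and Hk1), against 2.86%. None of the 9 was called lower at these 4 times, where 0.43%, 0.373%, 0.746% and 1.23% of genes were, in order of time. Adjusted for length and GC, 2 members were called higher at 6 h (Slc2a1 and Pfkl), against 0.859% of genes, the same 2 at 12 h, against 1.51%, and 3 at 24 h (with Hk1), against 1.94%. At 12 h the 9 log2 ratios lay between 0.11 and 2.04. Their median, 0.72, was the ratio of Pfkfb4, which reached 10 CPM in libraries from 6 h on alone, and the median of all genes compared was 0.02.

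**Figure D1:**
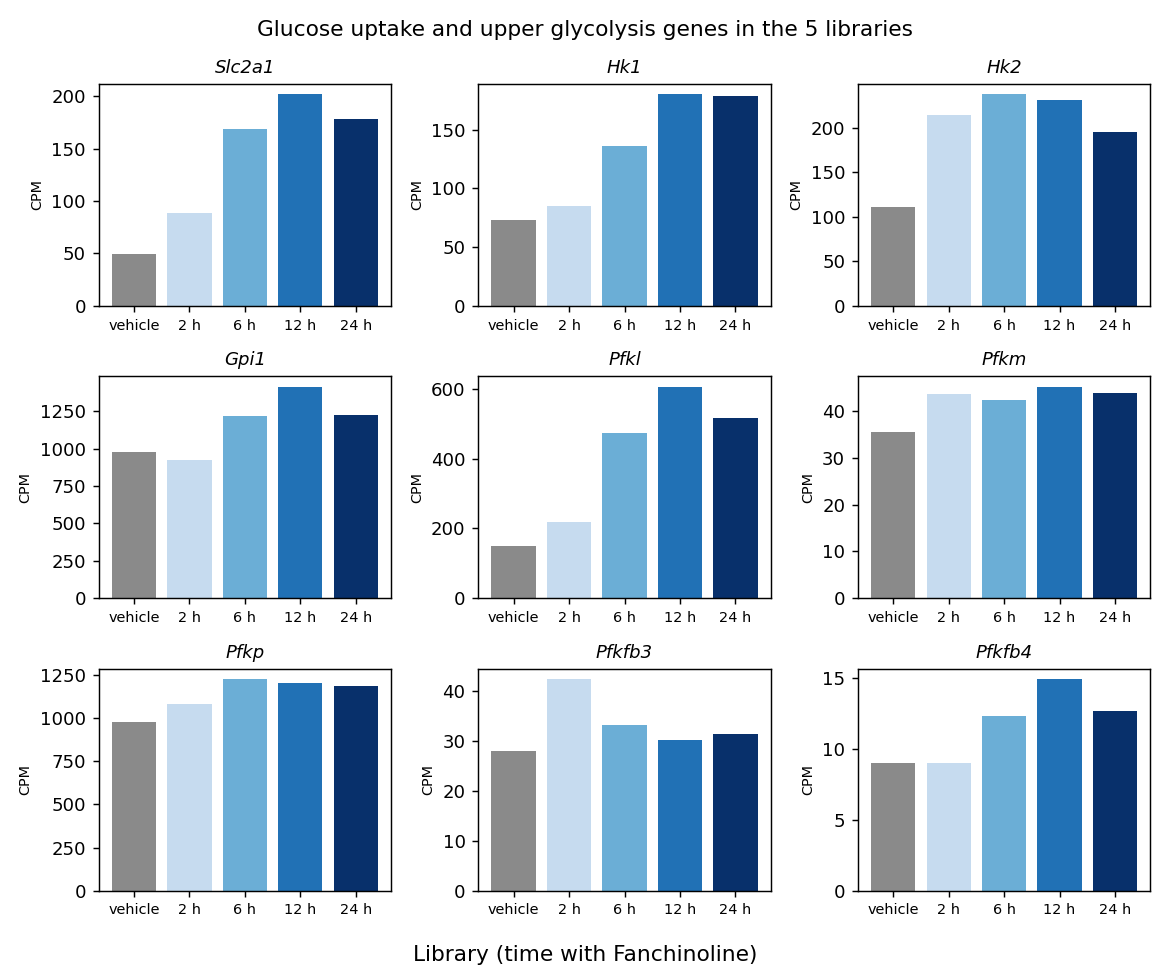
TMM-scaled CPM (vertical axes, from 0) of the 9 members that passed 10 CPM, with 1 bar for each of the 5 libraries, vehicle to 24 h; no error bars are drawn, as there is 1 library per time. Slc2a1 and Pfkl are highest at 12 h (202 and 605 CPM), Hk2 at 6 h (238 CPM) and Pfkfb3 at 2 h (42.3 CPM).

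The promoter windows of the 4 members called higher are shown because these genes moved most and short motifs known from glycolytic genes can be looked for in them. RefSeq windows on GRCm38.p6, from 250 bases before to 50 after a start site, were found for 9 members, with 14 windows in all. Both strands were searched for ACGTG and GCGTG, the cores of the hypoxia response element, and for CACGTG, the E-box bound by Myc and Mlx factors, which contains ACGTG. Capitals mark every match on either strand (CACGT and CACGC are the reverse complements of ACGTG and GCGTG), and each line runs 5′ to 3′ on the gene's strand.
Slc2a1, chr4:119108495-119108794, plus strand: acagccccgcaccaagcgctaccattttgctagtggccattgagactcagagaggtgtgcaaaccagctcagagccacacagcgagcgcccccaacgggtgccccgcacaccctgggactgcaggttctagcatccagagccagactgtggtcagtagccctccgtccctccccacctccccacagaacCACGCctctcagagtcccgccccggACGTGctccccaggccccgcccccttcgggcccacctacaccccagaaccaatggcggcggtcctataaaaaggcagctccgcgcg
Hk2, chr6:82774405-82774704, minus strand: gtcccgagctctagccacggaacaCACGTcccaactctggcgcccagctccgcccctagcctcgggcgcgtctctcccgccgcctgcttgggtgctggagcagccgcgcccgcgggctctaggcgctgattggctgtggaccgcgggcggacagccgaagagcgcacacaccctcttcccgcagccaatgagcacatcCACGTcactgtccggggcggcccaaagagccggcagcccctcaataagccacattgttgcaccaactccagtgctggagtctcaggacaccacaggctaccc
Pfkl, chr10:78009758-78010057, minus strand: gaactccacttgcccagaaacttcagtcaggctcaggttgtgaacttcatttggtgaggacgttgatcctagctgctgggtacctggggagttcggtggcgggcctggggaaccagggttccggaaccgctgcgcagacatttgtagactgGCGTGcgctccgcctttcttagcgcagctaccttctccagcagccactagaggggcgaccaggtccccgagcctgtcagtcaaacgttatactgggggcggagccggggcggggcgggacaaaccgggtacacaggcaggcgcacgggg
Hk1, the inner of its windows, chr10:62340372-62340671, minus strand: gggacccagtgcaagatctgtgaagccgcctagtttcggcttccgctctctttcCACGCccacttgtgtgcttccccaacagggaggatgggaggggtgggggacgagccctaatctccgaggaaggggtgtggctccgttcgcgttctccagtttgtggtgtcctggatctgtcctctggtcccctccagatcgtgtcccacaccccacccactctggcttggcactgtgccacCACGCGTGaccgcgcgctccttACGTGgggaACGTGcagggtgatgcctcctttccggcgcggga

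Slc2a1 held ACGTG 36 bases before the start site and GCGTG, on the other strand, 61 bases before it. Hk2 held ACGTG on the other strand at 52 and 226 bases before the start. Pfkl held 1 GCGTG, 99 bases before the start. The inner Hk1 window held 2 copies of ACGTG just past the start and 3 of GCGTG, a pair of which overlap as CACGCGTG, while its outer window held none. Of the 14 windows of the members, 11 held ACGTG or GCGTG, as did 43.8% of all 32851 windows in the RefSeq table. Windows of 1 gene can overlap, and 2 of Pfkm share the same GCGTG match, so the 14 are not independent. CACGTG stood in 2 of the 14, in 1 window each of Pfkfb3 and Pfkm, and in 7.15% of all windows. The motifs were also present where ratios were small: Pfkp held 4 copies of GCGTG, whereas the Gpi1 window held none. The outermost Pfkm window held 3 matches of ACGTG, of which 2 are the 2 strands of its 1 CACGTG. A match describes the letters in a window and not binding.

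Slc2a1, which encodes the transporter GLUT1 (ENSMUSG00000028645, chromosome 4, 119108711 to 119137983 on GRCm38), had 49.0 CPM in vehicle and 88.5, 169, 202 and 178 CPM at 2, 6, 12 and 24 h. Every treated library stood above vehicle, and the level was highest at 12 h. The log2 ratio over vehicle was 0.85 at 2 h (interval 0.76 to 0.94), 1.78 at 6 h, 2.04 at 12 h (1.96 to 2.12) and 1.86 at 24 h. Only 18 of the 8846 genes had a larger ratio at 6 h and 19 at 12 h. Of the 12 h gain in CPM over vehicle, 25.8% was present at 2 h and 78.2% at 6 h. Adjusted for length and GC, its 12 h ratio was 2.09.

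Slc2a3, which encodes the high-affinity transporter GLUT3, had 9 counts in vehicle and 0, 0, 2 and 11 counts at 2, 6, 12 and 24 h. The libraries at 0 counts leave room for a level of 0.080 CPM at 2 h and 0.071 CPM at 6 h, the worth of 3 counts. It stayed under the minimum for comparison in every library. Slc2a1 accordingly held at least 99.4% of the counts of both transporters in each library.

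The hexokinases differed in timing. Hk2, an inducible form that binds mitochondria, had 111 CPM in vehicle and 214, 238, 231 and 195 CPM at 2, 6, 12 and 24 h. Of its 12 h gain, 85.5% was present at 2 h. Its log2 ratio over vehicle was 0.94 at 2 h (0.89 to 0.999), 1.09 at 6 h, 1.06 at 12 h and 0.81 at 24 h, so that it was past the size threshold at 6 and 12 h alone and lay close to it at 2 h. Adjusted for length and GC, these ratios were 0.74, 0.92, 0.91 and 0.69, and Hk2 was then called at none of the 4 times.

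Hk1, the housekeeping form, moved later. Its level was 73.4 CPM in vehicle and 84.6, 136, 180 and 179 CPM at 2, 6, 12 and 24 h, with 10.5% of the 12 h gain present at 2 h. The log2 ratio was 0.21 at 2 h and 1.29 at 12 h (1.23 to 1.36) and at 24 h (1.22 to 1.35). With adjustment it was 0.998 at 12 h, just short of the threshold, and 1.01 at 24 h. Over the 2 h library Hk1 stood at 1.09 at 12 h, whereas Hk2 stood at 0.11. Hk1 thus made up 28.3% of the counts of the pair at 2 h (exact binomial interval 27.5 to 29.2) and 47.9% at 24 h (47.1 to 48.7), against 39.7% in vehicle (38.5 to 41.0).

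Gpi1, glucose-6-phosphate isomerase, was the most abundant member per length in every library. It had 978 CPM in vehicle and 924, 1217, 1413 and 1225 CPM at 2, 6, 12 and 24 h. The 2 h library was thus below vehicle and the 3 later ones above it. Its log2 ratio was -0.08 at 2 h and at most 0.53, at 12 h (0.51 to 0.55), and it was not called at any time. After adjustment its ratios were -0.33, 0.09, 0.35 and 0.17 at 2, 6, 12 and 24 h. Over the 2 h library Gpi1 stood at 0.61 at 12 h (0.59 to 0.63), and at 0.69 adjusted. Of all genes compared 2.14% had a larger measured ratio there. Exons of Gpi1 overlap a long non-coding gene on the opposite strand over 11.5% of their length, and the library kit does not mark strand.

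**Figure D2:**
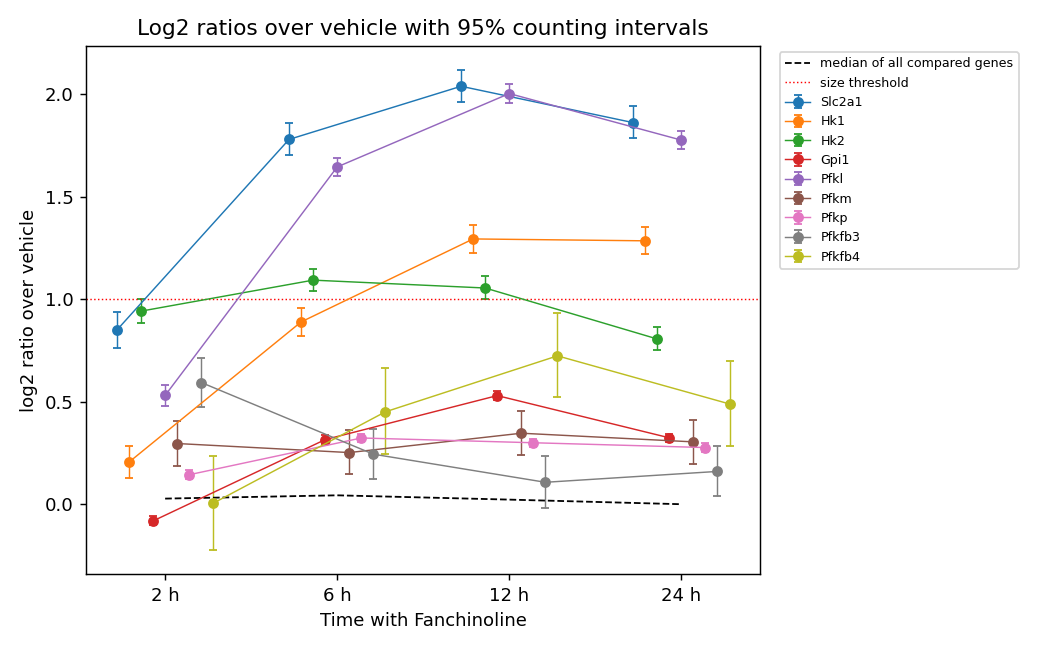
Log2 ratio over vehicle (vertical axis) of 9 members at 2, 6, 12 and 24 h with Fanchinoline, with 95% intervals for counting error; points are set apart sideways for legibility, the dashed line is the median of all 8846 genes compared and the dotted line the size threshold of 1. Slc2a1 and Pfkl reach 2.04 and 2.00 at 12 h, while Hk2 is at 0.94 by 2 h and 0.81 at 24 h.

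The phosphofructokinase genes diverged. Pfkl, the liver-type subunit (ENSMUSG00000020277, chromosome 10, 77986947 to 78010083), had 151 CPM in vehicle and 218, 472, 605 and 517 CPM at 2, 6, 12 and 24 h. All 4 treated libraries were above vehicle, with the widest step between 2 and 6 h. Its log2 ratio over vehicle was 0.53 at 2 h (0.48 to 0.58), 1.65 at 6 h, 2.00 at 12 h (1.96 to 2.05) and 1.78 at 24 h. Adjusted for length and GC it was 0.24, 1.38, 1.81 and 1.62.

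Pfkp, the platelet-type subunit, was at 979 CPM in vehicle and at 1081, 1225, 1205 and 1186 CPM at 2, 6, 12 and 24 h. Its largest log2 ratio was 0.32, at 6 h, and the adjusted ratios were negative at all 4 times (-0.26 to -0.11), so that no direction held for Pfkp under both scales. Pfkm, the muscle-type subunit, was at 35.5 CPM in vehicle and at 42.2 to 45.1 CPM in the treated libraries, with log2 ratios between 0.25 and 0.35 (0.28 to 0.42 adjusted). Of its exonic length 10.2% is shared with a non-coding gene on the same strand, which had at most 0.275 CPM.

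Per kilobase of exon, Pfkl held 46.7% of the phosphofructokinase level at 12 h, against 21.3% in vehicle, and Pfkp 46.3%, against 68.7%. At 12 h Pfkl stood at 90.7 CPM per kilobase (Poisson interval 89.5 to 91.9) and Pfkp at 89.9 (89.1 to 90.8), so that these intervals overlapped. In vehicle they stood at 22.6 and 73.0 CPM per kilobase. As a share of counts Pfkl made up 32.6% at 12 h (exact binomial interval 32.3 to 33.0), against 12.9% in vehicle (12.6 to 13.3). The annotated exons of Pfkp span 13401 bases, more than any other member, and the share per kilobase depends on which of them these cells use, which the count table does not show.

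**Figure D3:**
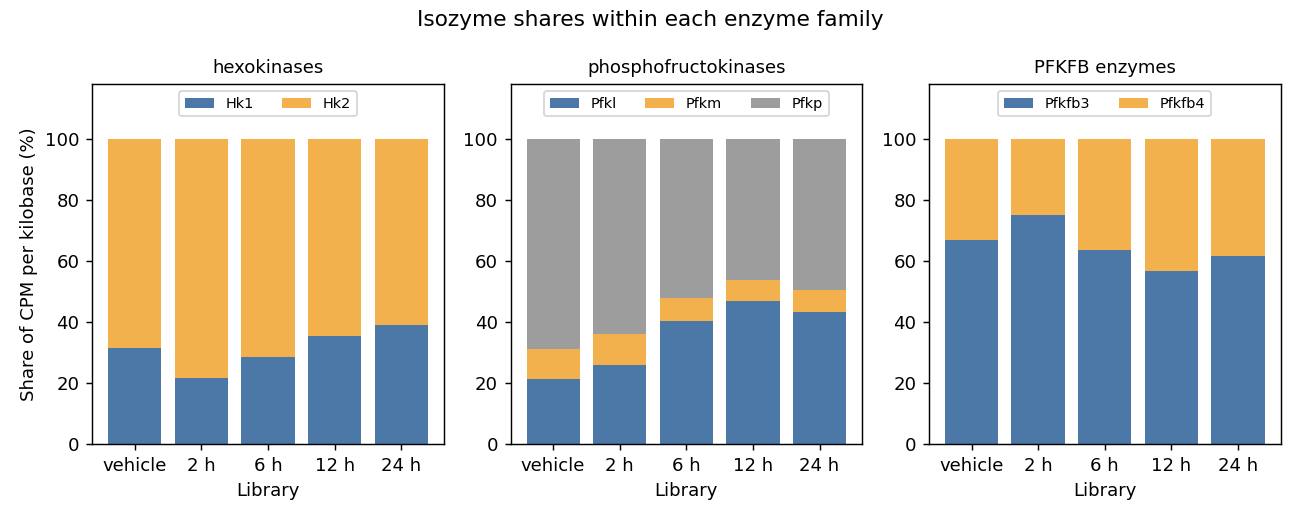
Share of each isozyme (vertical axis, percent of CPM per kilobase of exon) among the members of each family, with 1 stacked bar per library from vehicle to 24 h. The families are hexokinases (Hk1 and Hk2, without Hk3), phosphofructokinases and PFKFB enzymes (Pfkfb3 and Pfkfb4). Pfkl takes 46.7% of its family at 12 h, against 21.3% in vehicle. Hk2 is at its largest share of the pair with Hk1, 78.3%, at 2 h.

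The regulatory PFKFB genes moved in different ways and neither was called at any time. Pfkfb3, whose product is mainly a kinase that makes the activator, had 28.0 CPM in vehicle and 42.3, 33.2, 30.2 and 31.3 CPM at 2, 6, 12 and 24 h. The 2 h library was the highest, at a log2 ratio of 0.59 (0.48 to 0.71), and the interval at 12 h reached below 0 (-0.02 to 0.23). Over the 2 h library it stood at -0.49 at 12 h (-0.60 to -0.38). Adjusted for length and GC, its ratio over vehicle was 0.31 at 2 h and between -0.14 and -0.02 later. Pfkfb4, a form known from hypoxic and tumour cells, had 9.0 CPM in vehicle and 9.03, 12.3, 14.9 and 12.7 CPM at 2, 6, 12 and 24 h, with a log2 ratio of 0.72 at 12 h (0.52 to 0.94; 0.65 adjusted). At 12 h over the 2 h library Pfkfb4 also stood at 0.72 (0.52 to 0.92). Its share of the counts of the pair was 33.0% at 12 h (30.8 to 35.3), against 24.3% in vehicle (21.9 to 26.8).

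The order of levels per kilobase of exon in vehicle was Gpi1 (152 CPM per kilobase), Pfkp (73.0), Pfkl (22.6), Hk2 (18.7), Slc2a1 (13.99), Pfkm (10.6), Hk1 (8.60), Pfkfb3 (3.71), Pfkfb4 (1.85) and Slc2a3 (0.04), with no overlap of Poisson intervals between neighbours. These intervals cover counting error only, and the order depends on the annotated exonic lengths. In vehicle CPM Hk1 (73.4) stood above Slc2a1 (49.0) and Pfkm (35.5). At 12 h Slc2a1, at 57.6 CPM per kilobase, stood above Hk2, at 38.8, and Hk1, at 21.1, above Pfkm, at 13.5. Levels per kilobase were also summed over members alone. At 12 h over vehicle Slc2a1 with Slc2a3 was 4.10 times as high and Hk1 with Hk2 2.20 times. The phosphofructokinases were 1.83 times as high, the isomerase 1.44 times and Pfkfb3 with Pfkfb4 1.27 times. The phosphofructokinase value depends on the exonic length taken for Pfkp. In CPM, without division by length, that family summed to 1165 in vehicle and 1855 at 12 h, a smaller rise. Hk3 and Slc2a6, which are not members, are left out of these sums. Hk3 was at 49.1 CPM per kilobase in vehicle and 54.2 at 12 h, and Slc2a6 at 35.1 and 36.8.

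Between treated libraries the vehicle plays no part. At 6 h over 2 h Pfkl alone was called higher (1.12, interval 1.08 to 1.15), where 0.226% of genes were. Slc2a1 was at 0.93 and Hk1 at 0.68. At 12 h over 2 h 3 members were called higher, against 0.52% of genes: Pfkl (1.47), Slc2a1 (1.19) and Hk1 (1.09). The same 3 were called at 24 h over 2 h, against 0.859% of genes, at 1.25, 1.01 and 1.08. Adjusted for length and GC, all 3 were called in both comparisons, against 0.509% and 0.837% of genes. At 12 h over 6 h 0 members were called, where 0.0565% of genes were called higher and 0.249% lower. At 24 h over 12 h 0 members were called, where 0.0904% were called higher and 0.0565% lower. At 24 h over 12 h 8 of the 9 ratios were below 0, with Hk2 lowest at -0.25 (-0.29 to -0.21), and 40.7% of all genes compared were above 0.

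**Figure D4:**
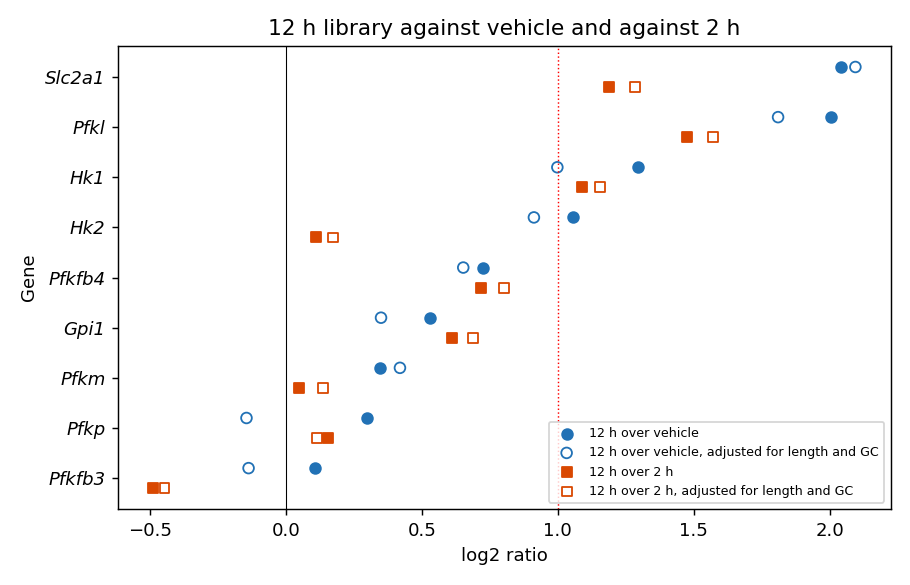
Log2 ratios (horizontal axis) of 9 members for 12 h over vehicle (circles) and 12 h over 2 h (squares), as measured (filled) and adjusted for exonic length and GC content (open); the dotted line marks the size threshold of 1. Slc2a1, Pfkl and Hk1 are past it over 2 h (1.19, 1.47 and 1.09), while Hk2 is at 0.11 there and at 1.06 over vehicle.

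The course over all 5 libraries was summarised by a slope of log2 level on log2(hours + 1), with edgeR's quasi-likelihood test and Benjamini-Hochberg adjustment over 12649 genes. The error in this test is how far libraries lie from the line (3 residual degrees of freedom), not a spread of replicates. The slope was positive and past the adjusted p threshold of 0.05 for Hk1 (0.32, adjusted p = 0.0163), Slc2a1 (0.45, adjusted p = 0.0183) and Pfkl (0.46, adjusted p = 0.0185), and 6.7% of all genes tested passed with a rising slope. Pfkfb4 (0.15, adjusted p = 0.0791), Gpi1 (0.11, adjusted p = 0.111), Hk2 (0.17, adjusted p = 0.161), Pfkp (0.07, adjusted p = 0.169), Pfkm (0.06, adjusted p = 0.213) and Pfkfb3 (-0.01, adjusted p = 0.910) did not pass. Without the 12 h library 0 members passed (edgeR adjusted p = 0.109 for each of the 3; 4 members had an unadjusted p under 0.05), and 0 of all genes did. Without the 24 h library Hk1 did not pass (edgeR adjusted p = 0.0526), and without the vehicle library Pfkfb3 passed with a falling slope (-0.14, edgeR adjusted p = 0.0409). With a slope on hours, edgeR's adjusted p was 0.121 for Hk1, 0.225 for Slc2a1 and 0.203 for Pfkl.

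Of 12 measured genes of lower glycolysis and lactate export 6 were called higher at 12 h, against 2.33% of all genes, with a median log2 ratio of 1.01. At 24 h 5 were, against 2.86%, with a median of 0.92. The adjusted counts were 7 and 6, against 1.51% and 1.94% of all genes. The enolase Eno3 stood below vehicle at both times (-0.50 and -0.65, not called). At 24 h over vehicle the lactate exporter Slc16a3 was at 2.34 (485 against 96.2 CPM), the aldolase Aldoc at 1.87, the phosphoglycerate kinase Pgk1 at 1.67 and the triose-phosphate isomerase Tpi1 at 1.28. Pgk1 has a near-identical copy, so its reads are uncertain. In the glycogen list 2 of 9 measured genes were called higher at 24 h, against 2.86% of all genes. After adjustment 1 was, against 1.94%. Pgm1, the phosphoglucomutase that links glucose-6-phosphate to glycogen, was called on both scales at 24 h, at 1.51 (293 against 103 CPM) and at 1.65 when adjusted. The glycogen synthase Gys1 was at 0.68 there and Pgm2l1 at 0.67.

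The side branches were mostly near vehicle. By time, 0.904% to 2.86% of all genes compared were called higher over vehicle and 0.373% to 1.23% lower. Counts of 0 in lists this short are close to those shares. Of 8 pentose phosphate genes 0 were called at 12 h, and at 24 h Pgls, the lactonase of that pathway, was called lower (-1.05, 33.8 against 70.3 CPM; -0.93 adjusted, not passing). At the same time the transaldolase Taldo1 was at -0.49, Rpia at -0.28 and the transketolase Tkt at 0.24. Of 6 hexosamine genes 0 were called at any of the 4 times, with Gnpnat1 at -0.99, Oga at 0.62, Ogt at 0.40 and the entry enzyme Gfpt1 at 0.34 at 24 h. G6pc3, a glucose-6-phosphatase that acts against hexokinase, was at -0.53 and Tigar, a fructose-2,6-bisphosphatase, at -0.18, at 24 h, with 0 of these 2 called.

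**Figure D5:**
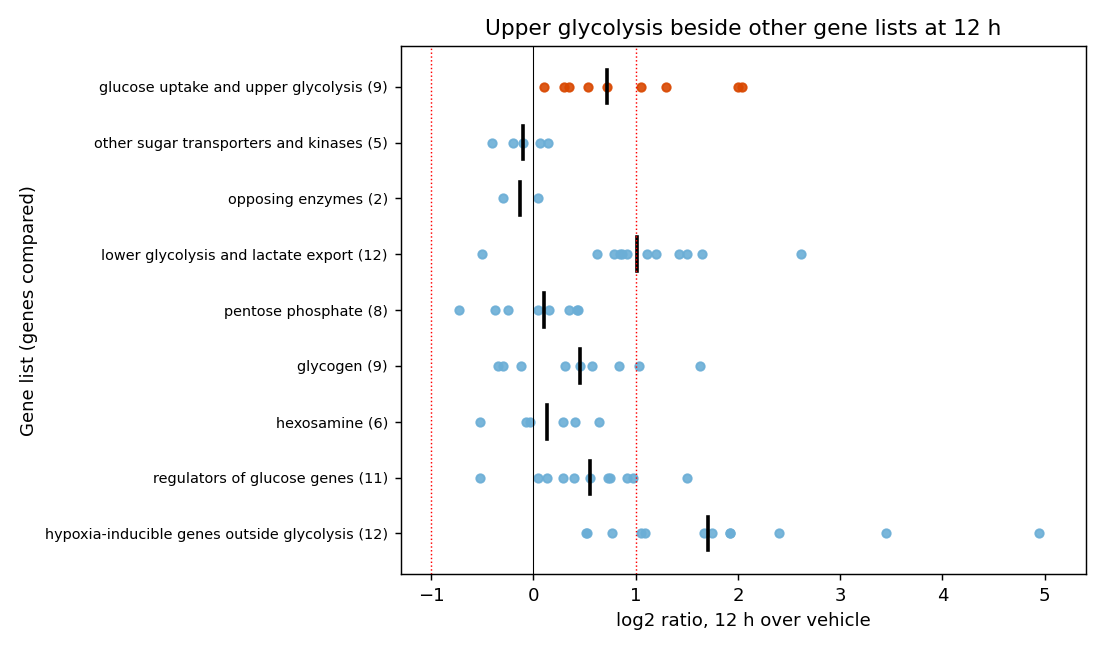
Log2 ratios at 12 h over vehicle (horizontal axis) of the members (orange) and of 8 other gene lists (blue), 1 point per gene with at least 10 CPM in 1 library; black bars are medians and dotted lines the size threshold. The members lie between 0.11 and 2.04, and the median of lower glycolysis is 1.01 and that of the pentose phosphate list 0.10.

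Regulators of these genes were measured as well. Hif1a, the oxygen-regulated subunit of HIF-1, was at 306 CPM at 12 h and 250 CPM in vehicle, a log2 ratio of 0.29, and its level of message does not show that of the protein. Of 11 regulators 3 were called higher at 24 h, also when adjusted, against 2.86% of all genes (1.94% adjusted): Egln1, the oxygen sensor that marks HIF for breakdown (1.34), and the arrestins Txnip (1.42) and Arrdc4 (1.10), of which Txnip is known to lower glucose uptake. Hif1an was at 0.97. Below vehicle at 24 h were Myc (-0.69, 163 against 264 CPM) and Mlx (-0.03), neither of them called. The list of hypoxia-inducible genes outside glycolysis held 16 genes, of which 12 were compared. Of these 12, 9 were called higher at 12 h, against 2.33% of all genes, and 9 at 24 h, against 2.86%. When adjusted, 8 were called at each time, against 1.51% and 1.94%. Vegfa (3.39 CPM in vehicle, 5.19 at 12 h), Car9 (2.99 and 3.60) and Adm (0.244 and 0.186) stayed under 10 CPM in every library and were not compared. Ero1l had no entry under that symbol. Of the 12, 3 (Ak4, P4ha2 and Ankrd37) were under 10 CPM in vehicle and passed the minimum through treated libraries alone, where they were high, as was the regulator Arrdc4. Ak4, P4ha2 and Ankrd37 were all among the 9 called at each time. Bnip3 was at 71.6 CPM at 24 h and 14.9 CPM in vehicle (2.27), and Pdk1 at 135 and 37.4 CPM (1.85). Ak4 was at 18.2 CPM at 24 h and 0.427 CPM in vehicle, and P4ha2 at 11.3 and 1.19 CPM.

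The genes with the most similar course were those with the smallest Euclidean distance between the 4 log2 ratios over vehicle, which share the vehicle library. For Slc2a1 they were Acat3 (distance 0.19), Ankrd37 (0.37), Pdk1 (0.59), Atm (0.62) and Pgk1-rs7 (0.72), and among the members Pfkl was at 0.36. For Pfkl they were Pdk1 (0.27), Acat3 (0.38), Ankrd37 (0.41), Lpin1 (0.67) and Lss (0.69). Hk2 was nearest to a different set, Phlpp2 (0.13), Zfp526 (0.14), Sema6b (0.15), Tet3 (0.17) and Ubr4 (0.17), each with a 2 h ratio between 0.89 and 1.08. Acat3 and Pgk1-rs7 have near-identical copies elsewhere in the genome, so their counts are uncertain.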

How the data were processed

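The authors deposited raw counts per gene, 1 column for each of the 5 libraries. Trim Galore, HISAT2 and the build GRCm38 are named, per the submitters' processing notes, without versions. The counting program, its annotation, its use of strand and whether the 5 columns pool the triplicates named in the design text are not stated. Per the labels' protocols, poly-A RNA was made into libraries with a kit that does not mark strand.

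Counts were scaled with TMM (edgeR 4.0.16, limma 3.58.1, R 4.3.3) and log2 CPM was taken after a prior count of 2 was added. Genes with at least 10 CPM in 1 library were compared. The trend test used filterByExpr without groups. Scripts were tested on simulated data. DESeq2 1.42.0 gave alternative size factors and an alternative test. Exonic length and GC content came from GENCODE M21 on GRCm38 (99.9% of compared genes) and entered a loess fit with a span of 0.3. Intervals take 1 count as 1 molecule, which PCR duplicates break, so they cover counting error only.

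The members, the gene lists and the rule for named genes were chosen with earlier results of these data known. Named genes were the members, up to 4 genes per pathway list with the largest ratio at 24 h, and the 5 genes nearest in course to Slc2a1, Hk2 and Pfkl. Of these genes 1 is not reported here. Regulators, macrophage markers and uncompared hypoxia-inducible genes named beside a count, such as Hif1a, were chosen after their values were seen.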

Additional observations from a re-analysis of the deposited data

How the results depend on the processing

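Of the 81 log2 ratios of members, 0 changed side of the threshold with DESeq2 size factors, with total counts, with a prior count of 0.5, with a minimum of 1 CPM or with entries summed per symbol. With length and GC adjustment 3 called ratios fell short of it, Hk2 at 6 and 12 h and Hk1 at 12 h, so that 2 members were called at 12 h over vehicle. A threshold of 1.5-fold called 3 members higher at 2 h over vehicle (7.2% of all genes), 3 at 6 h over 2 h (0.837%) and 5 at 12 h over 2 h (2.34%). With no filter on low counts 1 member was called lower at 2 h over vehicle and 1 higher at 24 h over 12 h. In both cases this was Slc2a3, which had at most 11 counts. For the trend, 0 members passed with a slope on hours (3 with an unadjusted p under 0.05) and 0 with no filter on low counts (6 unadjusted). In both settings 0 of all genes passed edgeR's test (2643 of 12649 and 4843 of 24170 unadjusted), while DESeq2's Wald test called 4 members and edgeR with DESeq2 size factors 3. Leaving out 1 library at a time gave 0 to 4 members, with 0 without the 12 h library (4 unadjusted). Over all genes edgeR called 1512, DESeq2's Wald test 2475, and edgeR 2331 without vehicle, 2323 without 2 h, 624 without 6 h, 0 without 12 h (2840 unadjusted) and 51 without 24 h. The cause was not tested. Adjusted p over these settings ranged up to 0.121 for Hk1, 0.225 for Slc2a1 and 0.203 for Pfkl. No paired analysis was possible because each group holds 1 library. At these depths Slc2a3 could not be compared.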

Other observations

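Other hexose transporters and hexokinases outside the 10 genes were also present in these cells. Hk3, a hexokinase known from myeloid cells, stood at 65.9 CPM per kilobase of exon at 24 h (Poisson interval 64.6 to 67.2). In vehicle it stood at 49.1 (47.9 to 50.4), and per kilobase it was above Hk1 and Hk2 in every library. In CPM, without division by length, Hk2 was above Hk3 at 2, 6 and 12 h (214 against 211, 238 against 195 and 231 against 199). It was below Hk3 in vehicle and at 24 h. The log2 ratio of Hk3 over vehicle was at most 0.42, at 24 h, and Hk3 was not called. Slc2a6, a transporter known from inflammatory macrophages, was at 40.1 CPM per kilobase at 24 h, against 35.1 in vehicle, where Slc2a1 was at 50.9 and 13.99. Slc2a1 was thus below Slc2a6 in vehicle and at 2 h, and above it from 6 h on. Of the 17 genes in this list 5 were measured and 0 were called over vehicle. By time, 0.904% to 2.86% of all genes compared were called higher and 0.373% to 1.23% lower. Adpgk, an ADP-dependent glucokinase, was at -0.35 and Slc2a8 at -0.04 at 24 h. Pfkfb2, a further PFKFB gene under the minimum for comparison, had 3.14, 7.15, 7.25, 7.39 and 8.60 CPM from vehicle to 24 h.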
